A study of Rattus norvegicus with 12 samples.

Results

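S-allylmercaptocysteine (SAMC), a water-soluble sulfur compound of aged garlic, was given to rats on a normal diet, and their liver transcripts were compared with those of rats on the same diet without it. The comparison sets the 3 Control+SAMC libraries against the 3 Control libraries and takes every measured gene, so it uses 6 of the 12 libraries of the series. All 12 are liver RNA of Sprague Dawley rats, an outbred laboratory stock. The other 6 libraries are 3 of a high fat diet (HFD) and 3 of the high fat diet with SAMC (HFD+SAMC), and they enter here as a second measurement of SAMC in liver and through the shared estimate of the spread. Dose, duration, sex and age are not given in the labels, which also do not say that the samples are separate animals. The p-values therefore speak of the scatter among these samples only, and that scatter could be technical. The title of the series names drug metabolising enzymes under the receptors AhR and Nrf2, and inflammation under NF-kB and the NLRP3 and NLRP6 inflammasomes, as its subjects.

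Nrf2 (encoded by Nfe2l2) is held in the cytoplasm by Keap1 and is released when reactive compounds modify Keap1. It then binds antioxidant response elements with small Maf proteins and turns on genes for glutathione conjugation, quinone and aldehyde reduction, NADPH supply and efflux of conjugates. The aryl hydrocarbon receptor (AhR) binds planar aromatic compounds and turns on Cyp1 genes and some conjugating enzymes through xenobiotic response elements, and the receptors CAR and PXR turn on the Cyp2b and Cyp3a genes. In liver these regulators share many targets, so a single gene can stand in several of the lists used below.

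On the normal diet a small group of genes was higher with SAMC, and 11 of the 18 that rose belong to lists of detoxifying, reducing and exporting enzymes. Of 15916 genes tested, 19 passed an adjusted p of 0.05 in edgeR's quasi-likelihood test (0.119% of genes tested). The count higher in Control+SAMC was 18 (0.113%) and the count lower was 1 (0.00628%). With no adjustment, 824 genes were higher (5.18%) and 733 lower (4.61%) at p under 0.05, where 795.8 in all are expected if no gene differs. The 3 Control+SAMC libraries lay wholly above the 3 Control libraries for 1119 genes (7.03%) and wholly below for 1036 (6.51%). All 19 genes that passed were among these. Among the 18, the largest fold with counts in every library was that of Akr7a3, an aldo-keto reductase that reduces aflatoxin dialdehyde, and the smallest adjusted p was that of Gstp1, a glutathione S-transferase of the pi class.

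Promoters of 6 genes that rose are shown first, because Nrf2 and AhR act through the antioxidant and xenobiotic response elements named above. They were chosen after the motif search as examples that hold a motif, so they say nothing of how common the motifs are. The sequences are from RefSeq (build GRCr8) and run from 250 bases before to 50 after the start of transcription, 5′ to 3′ on the strand of the gene. RefSeq promoters were matched for 12 of the 19 genes. Abcc3, Eif4g2-ps1, Gsr, LOC100911991, Rn7sl1 and Snap25 were among those with no match. Capitals mark 2 motifs searched on both strands, the antioxidant response element core TGACNNNGC and the xenobiotic response element core GCGTG. The windows are chr1:210769656-210769955 (minus strand) for Gstp1, chr9:31154739-31155038 (plus strand) for the first of the 2 listed starts of Gsta3, chr5:156876471-156876770 (plus strand) for Akr7a3, chr9:96194768-96195067 (plus strand) for Ugt1a6, and chr1:90645869-90646168 and chr1:90722031-90722330 (both plus strand) for Cyp2b1 and Cyp2b2.
Gstp1: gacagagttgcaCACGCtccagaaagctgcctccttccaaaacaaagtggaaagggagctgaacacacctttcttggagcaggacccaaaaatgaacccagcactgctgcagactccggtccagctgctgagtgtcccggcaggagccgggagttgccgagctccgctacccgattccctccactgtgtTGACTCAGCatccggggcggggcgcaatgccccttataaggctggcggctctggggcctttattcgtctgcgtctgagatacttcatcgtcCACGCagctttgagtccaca
Gsta3: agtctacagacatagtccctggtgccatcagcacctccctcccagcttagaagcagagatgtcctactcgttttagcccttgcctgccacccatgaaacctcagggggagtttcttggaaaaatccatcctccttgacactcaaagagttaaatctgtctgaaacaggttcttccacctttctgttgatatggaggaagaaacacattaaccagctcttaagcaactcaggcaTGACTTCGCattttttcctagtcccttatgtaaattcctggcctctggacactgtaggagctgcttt
Akr7a3: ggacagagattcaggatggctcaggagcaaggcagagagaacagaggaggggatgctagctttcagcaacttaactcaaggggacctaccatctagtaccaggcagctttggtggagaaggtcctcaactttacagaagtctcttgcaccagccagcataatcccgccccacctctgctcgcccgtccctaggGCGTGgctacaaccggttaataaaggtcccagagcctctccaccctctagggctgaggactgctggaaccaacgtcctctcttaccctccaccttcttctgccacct
Ugt1a6: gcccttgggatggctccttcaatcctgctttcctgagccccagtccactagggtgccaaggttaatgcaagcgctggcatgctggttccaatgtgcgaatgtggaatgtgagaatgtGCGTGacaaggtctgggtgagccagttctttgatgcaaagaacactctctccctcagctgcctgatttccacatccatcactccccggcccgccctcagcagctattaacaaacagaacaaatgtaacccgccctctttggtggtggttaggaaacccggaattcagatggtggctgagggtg
Cyp2b1: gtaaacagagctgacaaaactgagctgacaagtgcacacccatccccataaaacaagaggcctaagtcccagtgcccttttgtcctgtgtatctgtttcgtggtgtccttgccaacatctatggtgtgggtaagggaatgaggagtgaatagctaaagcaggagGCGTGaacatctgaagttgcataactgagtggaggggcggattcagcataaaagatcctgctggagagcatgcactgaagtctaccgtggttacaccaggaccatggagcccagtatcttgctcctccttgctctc
Cyp2b2: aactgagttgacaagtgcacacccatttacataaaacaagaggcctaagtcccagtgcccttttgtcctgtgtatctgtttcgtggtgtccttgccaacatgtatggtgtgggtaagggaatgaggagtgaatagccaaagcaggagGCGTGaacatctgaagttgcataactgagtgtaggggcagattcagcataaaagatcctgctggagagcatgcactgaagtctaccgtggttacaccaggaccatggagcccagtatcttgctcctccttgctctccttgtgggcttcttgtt

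The antioxidant core of Gstp1 began 61 bases before the start and read TGACTCAGC. Gsta3 carried the core from base -17, and Ugt1a6 and Akr7a3 carried the xenobiotic core from bases -133 and -57. The windows of Cyp2b1 and Cyp2b2 were identical at 275 of 317 aligned columns (86.8%), so these 2 genes are alike even here. The deposited table places the counted Cyp2b1 on chromosome 7 and Cyp2b2 on chromosome 1, while both GRCr8 windows are on chromosome 1, so the counted Cyp2b1 locus and the window shown may not be the same place. Among all 33469 RefSeq promoters of this length, 12.1% held the antioxidant core and 29.7% the xenobiotic core. Among the 13 promoters of the 12 matched genes, 2 held the antioxidant core (15.4%) and 8 the xenobiotic core (61.5%). The 8 include the near-identical windows of Cyp2b1 and Cyp2b2 and the second listed start of Gsta3, so they are not 8 separate cases. The windows of Acsm3, Aldh1a1, Gstm1 and Tubb3 held neither, those of Gnptab and Mrps27 held the xenobiotic core only, and the second listed start of Gsta3 lacked the antioxidant core. Among 32 promoters of 29 matched members of the Nrf2 target list, 10 held the antioxidant core (31.2%) and 16 the xenobiotic core (50%). A match is a string of letters in a short window and not a measured site.

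The 6 libraries held 45680738 to 54257072 counts each. Albumin took 8.06% to 21.8% of counts, as in hepatocyte RNA. The mitochondrially encoded genes took 3.17%, 3.53% and 3.10% in the Control libraries and 5.30%, 4.06% and 4.40% with SAMC, so the groups did not overlap. Values are given below as CPM, the counts scaled to a common library size with TMM factors. Control replicate 2 and Control+SAMC replicate 1 stood apart by a low level of the fibrinogen chain Fga, at 3588 and 3407 CPM against 11360 to 18520 in the other 4. Leaving out both left 5 genes past the threshold, all higher, and 4 of them were among the 19. The deposited RPKM values of 1 gene, RGD1562465, imply that the Control and HFD+SAMC libraries (set 1) were scaled with another gene length than the Control+SAMC and HFD libraries (set 2). Control+SAMC against Control therefore crosses from set 1 to set 2, and a difference of the sets cannot be told apart from an effect of SAMC that turns round on the high fat diet. HFD+SAMC replicate 3 held skeletal muscle transcripts, with a summed level of 386.3 CPM over a list of 16 muscle markers against at most 3.27 in the other 11 libraries.

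**Figure D1:**
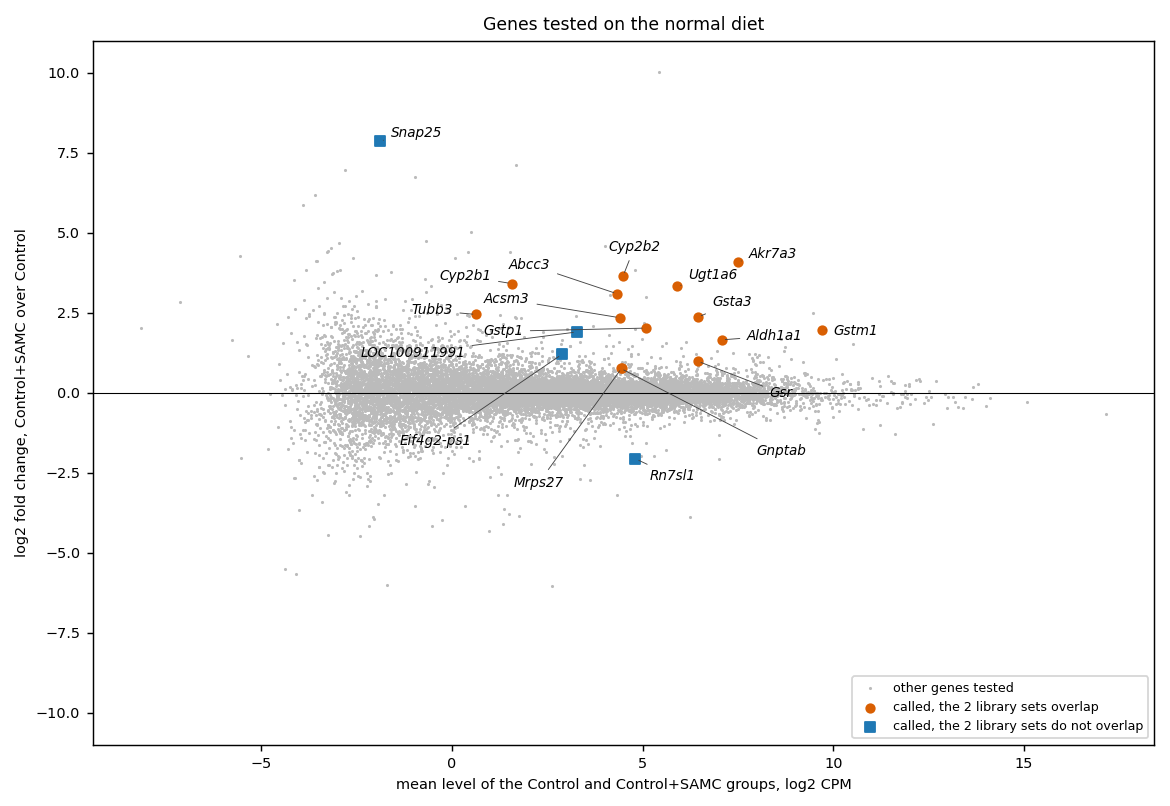
Log2 fold change of Control+SAMC over Control (vertical axis) against the mean level of both groups in log2 CPM (horizontal axis) for the genes tested, with 18 of the 19 genes past the threshold drawn and named. Orange circles are the 14 whose set 1 and set 2 libraries overlap, blue squares the 4 whose sets do not overlap, and Rn7sl1 is the 1 named gene below 0.

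Glutathione S-transferases join glutathione to reactive compounds, and 3 of the 22 tested rose. Gstp1 was at 14.4, 13.7 and 12.1 CPM in the Control libraries and at 56.8, 52.0 and 53.7 CPM with SAMC. Its groups lay far apart with little spread inside either, a 4.05-fold rise (log2 2.02 ± 0.13 SE, adjusted p = 4.88e-05, edgeR). Gstm1, a mu class enzyme that conjugates epoxides, was at 356, 309.5 and 363 CPM without and 1739, 1045 and 1231 CPM with SAMC (3.90-fold, adjusted p = 0.0159). Gsta3, an alpha class enzyme, was at 32.0, 28.7 and 25.0 CPM without and 232, 92.3 and 115 CPM with SAMC. Here Control+SAMC replicate 1 was highest by a wide margin, and the rise was 5.14-fold (log2 2.36 ± 0.31, adjusted p = 0.0194, edgeR). In all, 17 of the 22 were above 0, their median log2 difference was 0.68, and 13 had an unadjusted p under 0.05, all higher, beside a median of -0.01 over all genes tested. The levels of Gstt3 (124, 278 and 162 CPM against 1021, 483 and 311) and Gsta2 (22.6, 35.1 and 47.8 against 125, 104 and 86.6) did not overlap either, with adjusted p-values of 0.277 and 0.268. Gsta and Gstm genes have close relatives, so their counts may be split between copies.

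Among the genes that passed with counts in every library, the widest fold was that of a gene of aldehyde and carbonyl metabolism. Akr7a3 was at 21.97, 20.5 and 17.3 CPM in the Control libraries and at 527, 186 and 306 CPM with SAMC. The lowest SAMC library was still several times above the highest Control library, and the rise was 17.0-fold (log2 4.09 ± 0.32, adjusted p = 0.000243, edgeR). Aldh1a1, which oxidises retinal and lipid aldehydes, rose 3.14-fold, from 54.1, 72.9 and 68.3 CPM to 282, 170.4 and 160.2 CPM (adjusted p = 0.0319). These were the 2 of 37 tested members that passed, and 25 of the 37 were above 0 with a median of 0.16. That median was 0.32 without Control replicate 2, and 1 member passed without any 1 Control library, Control+SAMC replicate 1, HFD+SAMC replicate 2 or 3, or HFD replicate 3. Akr1b8, an aldo-keto reductase of the aldose reductase family, was at 1.66, 0.857 and 1.30 CPM without and 47.5, 4.06 and 41.6 CPM with SAMC. Its libraries did not overlap, but Control+SAMC replicate 2 was far below the other 2 SAMC libraries and the adjusted p was 0.0859 (log2 4.60 ± 0.80).

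Among 35 cytochromes P450 tested, Cyp2b2 and Cyp2b1, the phenobarbital-inducible oxidases that serve as the readout of CAR, were the 2 that rose. Cyp2b2 was at 3.39, 2.79 and 3.75 CPM without and 51.7, 38.0 and 35.1 CPM with SAMC, a 12.6-fold rise (log2 3.65 ± 0.47, adjusted p = 0.0194, edgeR). Cyp2b1 was at 0.381, 0.636 and 0.516 CPM without and 7.20, 4.93 and 4.07 CPM with SAMC (10.6-fold, adjusted p = 0.0237). Reads of such close copies can be assigned to either gene, so their separate levels are uncertain. The median of the 35 was 0.14, with 22 above 0. It was 0.07 without Control+SAMC replicate 2 and 0.28 without Control+SAMC replicate 3. None passed without any 1 Control library or Control+SAMC replicate 1, and 1 passed without Control+SAMC replicate 2 or HFD+SAMC replicate 2. Cyp2b3 was at 371 and 390 CPM on average, Cyp3a23/3a1 at 12.2 and 14.5, and Cyp2c6v1 at 1490.5 and 1568, each with its log2 difference between 0.07 and 0.25 and an SE larger than that difference. Of the list of CAR and PXR with their targets, 5 of 32 rose (Cyp2b1, Cyp2b2, Abcc3, Gstm1 and Aldh1a1), none fell, and the median was 0.37. None passed without any 1 Control library, 2 without Control+SAMC replicate 1 and 3 without HFD+SAMC replicate 2, and the median was 0.65 without Control replicate 2, 0.24 without Control replicate 3 and 0.20 without Control+SAMC replicate 2. The receptor CAR (Nr1i3) was at 4.18 and 5.53 CPM on average and PXR (Nr1i2) at 148 and 142, with log2 differences of 0.40 ± 0.48 and -0.06 ± 0.23.

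Ephx1, the microsomal epoxide hydrolase that opens epoxides left by P450 enzymes, lay just outside the threshold. It was at 187, 226 and 222 CPM without and 1794, 592 and 1216 CPM with SAMC, so the groups did not overlap (log2 2.50 ± 0.42, adjusted p = 0.0619, edgeR). No member of the list of epoxide hydrolases, flavin monooxygenases and carboxylesterases passed among 26 tested, 20 of which were above 0 (median 0.16). The median was 0.10 without Control replicate 1 and 0.27 without Control replicate 2, and 1 member passed without Control+SAMC replicate 2 or HFD replicate 2.

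Glucuronosyltransferases and their sugar supply were above 0 in 14 of 15 tested genes, with a median log2 difference of 0.71, and 1 passed, or none without any 1 Control library and 2 without HFD replicate 4. Ugt1a6, which glucuronidates planar phenols, was at 12.9, 9.99 and 9.98 CPM without and 169.8, 79.8 and 78.3 CPM with SAMC (9.99-fold, log2 3.32 ± 0.41, adjusted p = 0.0186, edgeR). The Ugt1a genes share their last exons, so reads of those exons may not be assigned to 1 gene. Ugp2, which makes UDP-glucose, was at 86.1, 121 and 84.6 CPM without and 261, 222 and 209.5 CPM with SAMC (adjusted p = 0.0777). Ugt2b17 was at 881, 334 and 1065 CPM without and at 2351, 2033 and 2130.3 with SAMC (adjusted p = 0.205). Neither pair of groups overlapped, and 7 of the 15 had an unadjusted p under 0.05, all of them higher. In HFD+SAMC against HFD, 8 of the 15 were above 0, with a median of 0.04. There Ugt1a6 was at log2 1.38 ± 0.38, while Ugp2 and Ugt2b17 had the opposite sign (-0.53 ± 0.22 and -0.39 ± 0.36). For Ugp2 the difference of the effects between the diets had an adjusted p of 0.0658 (edgeR). No sulfotransferase or sulfate-activating gene passed among 11 tested.

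Abcc3 (Mrp3), which exports glucuronides from the hepatocyte to the blood, was the 1 transporter of 26 that rose. It was at 4.14, 5.24 and 3.34 CPM without and 57.2, 31.2 and 19.8 CPM with SAMC, an 8.51-fold rise (log2 3.09 ± 0.40, adjusted p = 0.0194, edgeR). The median of the transporters was -0.18, with 17 below 0. It was 0.06 without Control replicate 2, with 15 of 26 above 0, and -0.30 without Control replicate 1, and none passed without any 1 Control library. The bile-side exporter Abcc2 was at 866 and 763 CPM on average (log2 -0.18 ± 0.34).

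Gsr, which uses NADPH to reduce oxidised glutathione, was at 63.2, 57.1 and 54.8 CPM without and 138, 97.2 and 111 CPM with SAMC (1.98-fold, adjusted p = 0.0296). The lowest SAMC library lay well above the highest Control library. Of 38 genes of the glutathione and thioredoxin systems, 1 rose, 26 were above 0 and the median was 0.10, with 9 higher and 3 lower at an unadjusted p under 0.05. None passed without any 1 Control library, Control+SAMC replicate 1, HFD+SAMC replicate 1 or 2, or HFD replicate 3. The 3 lower were Prdx4, Chac1 and Gpx1, whose adjusted p-values were 0.303, 0.358 and 0.481.

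Across the whole list of Nrf2 targets, 8 of 36 tested members rose and none fell. Among them were Gstp1, Gstm1, Gsta3, Akr7a3, Ugt1a6, Abcc3 and Gsr. Without Control replicate 1, 2 or 3, in turn, 2 members passed, and 3 passed with both low-fibrinogen libraries left out, where the median was 0.75. Above 0 were 33 of 36, the median log2 difference was 1.03, and 25 had an unadjusted p under 0.05, all higher. All genes tested had a median of -0.01, and 5.18% of them were higher at that p. In HFD+SAMC against HFD, 30 of the 36 were above 0 and the list's median was smaller, at 0.29, beside 0.003 over all genes tested. Averaged over both diets the list's median was 0.52. The median level of the list against the Control mean was 0.07, 0.02 and -0.03 in the Control libraries and 1.32, 1.14 and 0.58 in the Control+SAMC libraries, so Control+SAMC replicate 3 was the weakest of the 3. Quinone reductase Nqo1 was at 60.8, 24.4 and 67.7 CPM without and 123, 105 and 129 with SAMC (log2 1.22 ± 0.35, adjusted p = 0.273). The subunits of glutamate-cysteine ligase, which sets the rate of glutathione synthesis, had log2 differences of 1.22 ± 0.35 for Gclc and 1.39 ± 0.39 for Gclm, with adjusted p-values of 0.276 and 0.281. Gclc and Gclm were high in Control+SAMC replicates 1 and 2 and near Control in replicate 3. For Gclc, at 111, 114 and 172 against 449, 341 and 134 CPM, the groups overlapped. In HFD+SAMC against HFD, Gclc and Gclm had the opposite sign (log2 -0.22 ± 0.34 and -0.41 ± 0.39), and Nqo1 was at 0.30 ± 0.34. The difference of the effects between the diets did not pass for Gclc or Gclm (adjusted p = 0.547 and 0.494, edgeR). Heme oxygenase Hmox1 was at 177, 42.2 and 138 CPM without and 95.2, 261 and 173 with SAMC, an overlap of the groups (log2 0.57 ± 0.51). The summed hepatocyte markers lay at 168400 to 378700 CPM in Control and at 167000 to 243400 CPM with SAMC, and their part in these differences was not tested. In bulk tissue a higher level cannot be told apart from more cells of a type.

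The transcripts of the regulators themselves did not pass. Nfe2l2 was at 126, 173 and 150.2 CPM without and 148, 122 and 116 with SAMC (log2 -0.21 ± 0.16, adjusted p = 0.722). Keap1 averaged 61.3 and 58.5 CPM, and none of the 11 regulators of the pathway passed. The largest difference among them was that of the small Maf protein Maff, at 1.49, 0.710 and 0.987 CPM without and 2.11, 2.38 and 2.49 with SAMC (log2 1.13 ± 0.39, adjusted p = 0.371). For the AhR pathway 1 of 13 rose, which was Ugt1a6, and the median was 0.47. It was 0.21 without Control+SAMC replicate 2, and none of the 13 passed without any 1 Control library or with both low-fibrinogen libraries left out. Ahr itself was at 21.9, 89.1 and 47.3 CPM without and 59.0, 58.9 and 26.5 with SAMC (log2 -0.13 ± 0.46), and the sign turned when Control replicate 2 was left out (0.48) or Control+SAMC replicate 3 was (0.16). Cyp1a1, its most sensitive target, was at 0.667, 0.0734 and 0 CPM without and 2.28, 13.9 and 0.348 with SAMC, so the mean was carried by Control+SAMC replicate 2 and the groups overlapped (log2 4.41 ± 1.46, adjusted p = 0.365). Cyp1a2 was at 729, 931 and 897 CPM without and 955, 1555 and 1019 with SAMC (log2 0.47 ± 0.23, adjusted p = 0.546).

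**Figure D2:**
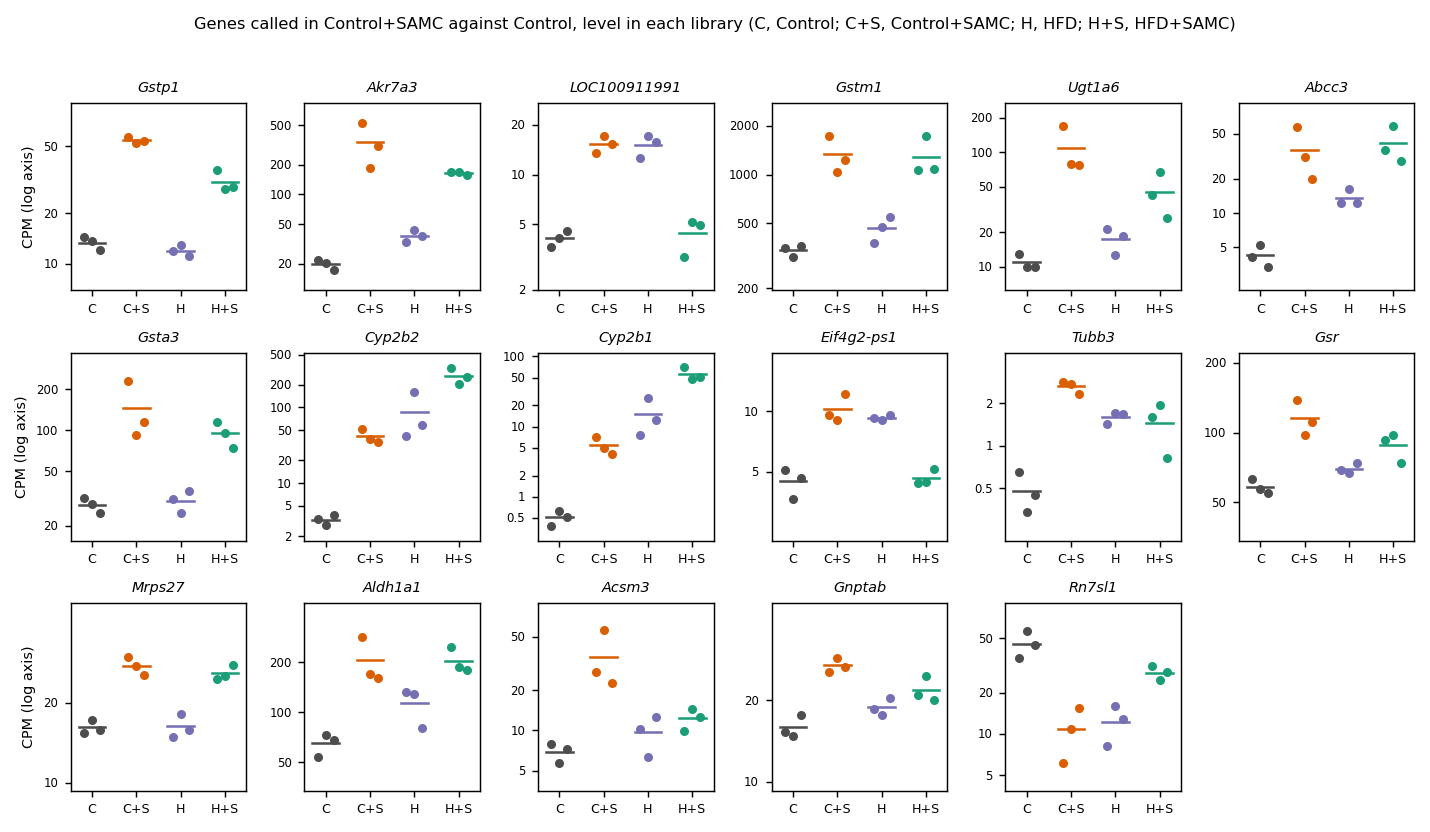
Level in each library in CPM (log axis) of 17 genes past the threshold that had counts in every Control library, in Control (C), Control+SAMC (C+S), HFD (H) and HFD+SAMC (H+S), with a point per library and a bar at the mean of 3. In all 17 panels the C and C+S points are apart, while for LOC100911991, Eif4g2-ps1 and Rn7sl1 the H and H+S points are apart in the opposite direction.

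Outside the lists, 4 further genes rose whose library sets overlapped. Acsm3, which activates medium-chain fatty acids in mitochondria, was at 7.87, 5.65 and 7.27 CPM without and 27.3, 55.9 and 22.4 CPM with SAMC (5.08-fold, adjusted p = 0.0320). Mrps27, a protein of the mitochondrial ribosome, was at 15.4, 17.3 and 15.8 CPM without and 29.8, 27.6 and 25.6 with SAMC (1.71-fold, adjusted p = 0.0296). Gnptab, which makes the mannose 6-phosphate tag of lysosomal enzymes, was at 15.3, 14.8 and 17.6 CPM without and 25.5, 28.6 and 26.6 with SAMC (1.69-fold, adjusted p = 0.0415). Tubb3, a tubulin known from neurons, stayed below 1 CPM in Control and was at 2.83, 2.74 and 2.33 CPM with SAMC (5.49-fold, adjusted p = 0.0237). Mrps27 and Gnptab changed little but had narrow groups.

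The remaining 4 of the 19 followed the library sets. LOC100911991, a copy of elongation factor 1-alpha, was at 3.62, 4.14 and 4.55 CPM in Control and 13.5, 17.0 and 15.3 in Control+SAMC, and also at 12.7, 17.0 and 15.7 in HFD and 3.18, 5.14 and 4.94 in HFD+SAMC. The pseudogene Eif4g2-ps1 was at 3.65 to 5.15 CPM in the 6 libraries of set 1 and at 9.01 to 12.2 in those of set 2. Rn7sl1, the 7SL RNA of the signal recognition particle and the 1 gene lower with SAMC (4.19-fold, adjusted p = 0.0415), was at 24.5 to 56.2 CPM in set 1 and 6.17 to 15.9 in set 2. Snap25, a synaptic vesicle fusion protein, had 0 counts in Control and 77 in the 3 Control+SAMC libraries. Against a floor of 3 counts over the group it was at least 27.1-fold higher, and HFD was at 0.222 to 0.561 CPM while HFD+SAMC was at 0 to 0.0154. On the normal diet alone the SAMC difference and the set difference cannot be told apart for any of the 19. For these 4 the high fat diet libraries do not separate them either. Sets did not overlap, in either direction, for 123 genes (0.773% of genes tested). Among genes at an unadjusted p under 0.05, pseudogenes were 54 higher and 12 lower of 406 tested and genes typed misc_RNA 41 higher and 5 lower of 200, while protein coding genes were 689 higher and 648 lower of 14107.

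How the 19 behaved on the high fat diet was read from HFD+SAMC against HFD, which shares no library with the normal diet comparison and crosses the sets the other way. The sign was the same for 14 of the 19, with 11 of those at an unadjusted p under 0.05. Of all 15916 genes tested, 8033 were above 0 in HFD+SAMC against HFD. The share of all genes with the same sign on both diets was not computed, so these counts have no background beside them. Past the threshold there were 8 genes (0.0503% of genes tested), which included Gstp1 and Akr7a3 as rises. That count was 14 without Control replicate 1, 27 without Control replicate 2, and 1 to 5 without any 1 of Control replicate 3, Control+SAMC replicate 3, HFD replicates 2 and 3 and the HFD+SAMC libraries. Gstp1 went from 11.8, 13.0 and 11.1 CPM in HFD to 36.2, 27.8 and 28.5 in HFD+SAMC (log2 1.36 ± 0.13, adjusted p = 0.00332, edgeR). Akr7a3 went from 32.9, 44.0 and 38.2 to 167, 167 and 156 CPM (log2 2.09 ± 0.30, adjusted p = 0.0311, edgeR). Cyp2b2 was already at 42.1, 161 and 58.3 CPM in HFD without SAMC and at 329.9, 203 and 252 with it, so the HFD libraries overlapped those of Control+SAMC and reached above them. Acsm3 was at 10.3, 6.28 and 12.5 CPM in HFD and at 9.80, 14.5 and 12.6 in HFD+SAMC (log2 0.34 ± 0.34). The 5 with the opposite sign were LOC100911991, Eif4g2-ps1, Snap25, Rn7sl1 and Tubb3, the last at log2 -0.13 ± 0.33.

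The difference of the SAMC effect between the diets was tested directly for every gene. It passed for 23 genes (0.145% of genes tested), 20 with the larger value on the normal diet and 3 with the smaller, and in 22 of the 23 the sets did not overlap. Of the 23, 9 (39.1%) have a description with the words like, similar to or pseudogene, as have 2400 (15.1%) of all genes tested. The 4 set-following genes of the 19 were in it. None of the 14 genes with the same sign on both diets passed this test, nor did Tubb3, so a different size of the response was not shown for Acsm3 (log2 difference of the effects 2.00, adjusted p = 0.260) or Akr7a3 (2.00, adjusted p = 0.115). This count was 7 to 13 when any 1 library other than Control replicate 1 or HFD replicate 4 was left out. The average over both diets balances the sets. It includes the normal diet comparison that chose the 19, so it is no separate test of them. In it 12 of the 19 still passed, among them Gstp1, Akr7a3, Gstm1, Gsta3, Ugt1a6, Abcc3, Cyp2b1, Cyp2b2, Gsr, Mrps27 and Aldh1a1. Acsm3, Gnptab and Tubb3 then had adjusted p-values of 0.0559, 0.0503 and 0.0775.

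**Figure D3:**
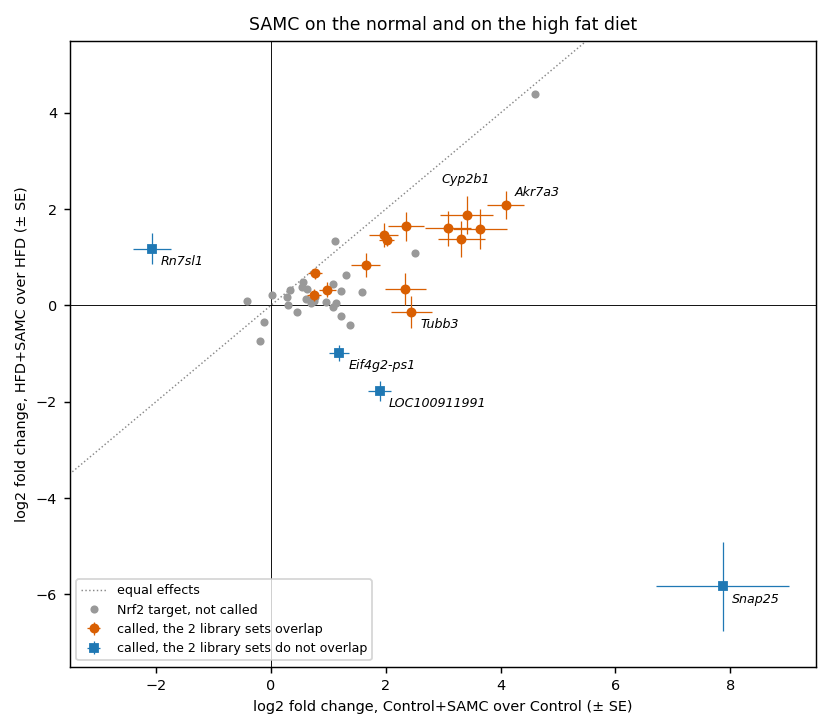
Log2 fold change of SAMC on the normal diet (horizontal axis) and on the high fat diet (vertical axis), with SE bars, for 18 of the 19 genes past the threshold on the normal diet and, without bars, for the other Nrf2 targets tested. Orange circles lie mostly right of the dotted line of equal effects. They were chosen by their effect on the normal diet, and none of them passed the test of the difference between diets. The 4 blue squares, whose library sets do not overlap, lie in the quadrants of opposite sign.

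Removing 1 library at a time left 3 to 23 genes. Gstp1, Akr7a3 and LOC100911991 kept an adjusted p under 0.05 in all 12 such fits. The other 16 lost it without any one of the Control libraries, where 3 genes (without replicate 1), 8 (replicate 2) and 3 (replicate 3) passed and adjusted p-values reached 0.220. Leaving out other libraries also cost calls. Of the 12 fits, Gnptab passed in 0, Snap25 in 1, Rn7sl1 in 2, and Acsm3, Aldh1a1, Gsr and Mrps27 in 4 each. Without Control+SAMC replicate 1 the count was 8, of which 7 were among the 19, and without HFD+SAMC replicate 2 it was 9.

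Genes of cholesterol synthesis and uptake were above 0 in 25 of 27 tested, with a median log2 difference of 0.60, and none passed. Of the 27, 3 had an unadjusted p under 0.05, all higher. The list's median level against the Control mean was -0.97, 1.13 and -0.33 in the Control libraries and 1.16, 0.90 and 0.70 with SAMC, so Control replicate 2 lay among the SAMC libraries. The median was 1.49 without Control replicate 2, with 3 genes past the threshold, 0.22 without Control replicate 1 and 0.38 without Control replicate 3. On the high fat diet all 27 were above 0, with a median of 1.31. Bile acid synthesis genes had 13 of 23 above 0 and lipogenic genes 15 of 29, with medians of 0.05 and 0.00. Both depended on single libraries. Lipogenic genes above 0 were 11 (median -0.19) without Control replicate 1 and 23 (median 0.35) without Control replicate 2. Bile acid genes above 0 were 8 (median -0.05) without Control replicate 1 and 18 (median 0.20) without Control replicate 2, and their median was also below 0 without Control replicate 3 or Control+SAMC replicate 2 (-0.02 each) and 0.17 without Control+SAMC replicate 3.

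PPARa targets, which serve fatty acid oxidation, were below 0 in 36 of 47, with a median of -0.20, and none passed. The omega hydroxylases Cyp4a2 (96.5, 65.8 and 107 CPM without, 50.1, 40.2 and 51.2 with SAMC) and Cyp4a3 did not overlap between groups, at adjusted p-values of 0.323 and 0.382. Without Control replicate 3 the median was -0.37, and without Control replicate 1 it was -0.12. Of 34 genes of glucose metabolism, 23 were above 0 with a median of 0.18, and none passed. The median was 0.06 without Control replicate 3 and 0.12 without Control+SAMC replicate 2. Gpi, which feeds glucose 6-phosphate into glycolysis, was at 111, 111 and 98.3 CPM without and 189.9, 183 and 174 with SAMC (log2 0.77 ± 0.16, adjusted p = 0.112).

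**Figure D4:**
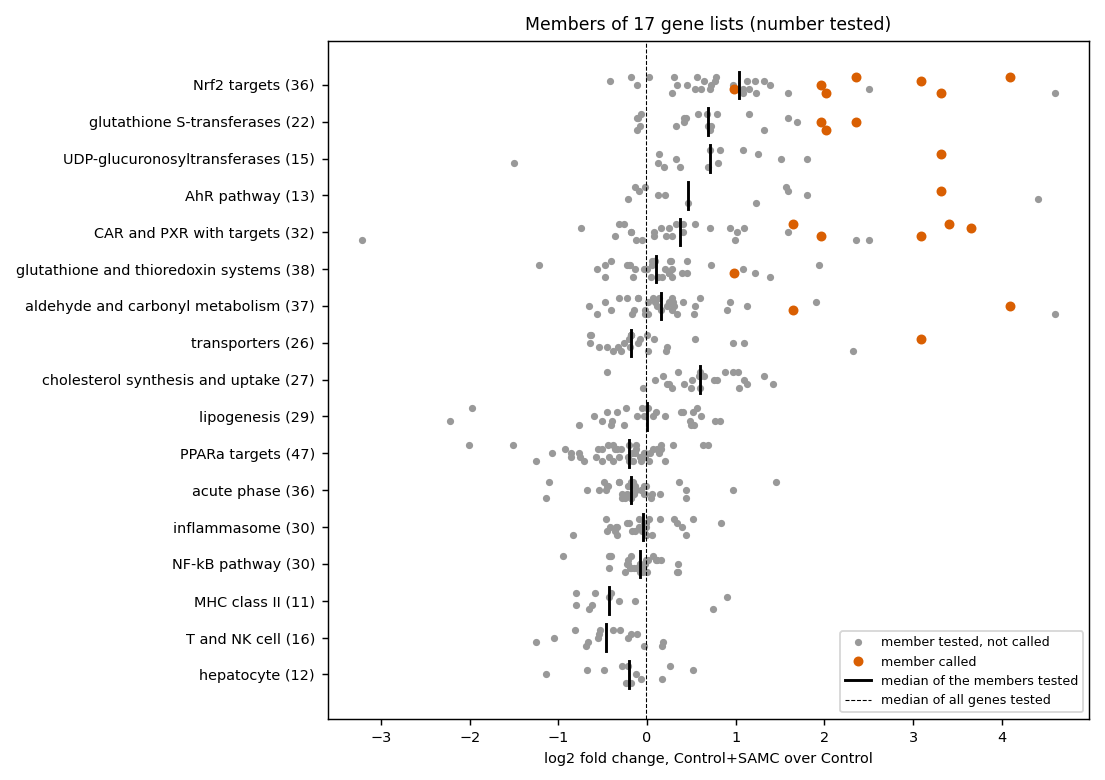
Log2 fold change of Control+SAMC over Control for each tested member of 17 gene lists, as points (orange where past the threshold, with 1 member not drawn), with a black bar at the list's median and a dashed line at the median of all genes. The Nrf2 target list has its median at 1.03 and 7 orange points, while the inflammasome, NF-kB and acute phase lists sit near 0 with none.

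None of the genes of the inflammatory pathways passed. Of 30 inflammasome genes 9 were above 0 (median -0.05), and of 30 genes of the NF-kB pathway 8 were above 0 (median -0.08). Without Control+SAMC replicate 1 these counts were 16 (median 0.0058) and 15 (median 0.0092). Inflammasome genes above 0 were 14 without Control replicate 2 or 3, and genes of the NF-kB pathway above 0 were 14 without Control replicate 1. Nlrp3 was at 3.91, 3.28 and 3.23 CPM without and 3.80, 3.54 and 2.86 with SAMC (log2 -0.03 ± 0.27). Nlrp6 had 0 counts in all 12 libraries and was not tested. The NF-kB subunit Rela averaged 63.9 and 58.9 CPM (log2 -0.12 ± 0.15), Nfkb1 35.5 and 35.2 (-0.01 ± 0.12), and the inhibitor Nfkbia 32.5 and 28.4 (-0.20 ± 0.25). The groups overlapped for all 4. P2rx7, the ATP receptor that can set off the NLRP3 inflammasome, was at 14.7, 10.1 and 14.2 CPM without and 5.19, 9.01 and 7.77 with SAMC, with no overlap (log2 -0.83 ± 0.24, adjusted p = 0.260). Of the 30 inflammasome genes 2 lay wholly below Control and 1 wholly above, near the shares of all genes tested (6.51% and 7.03%). Acute phase genes were above 0 in 8 of 36 (median -0.18) and in 17 of 36 without Control+SAMC replicate 1, the low-fibrinogen library (median -0.03). The median was -0.12 without Control replicate 1 and -0.29 without Control+SAMC replicate 2. Apoa1, the main protein of HDL, was at 2688, 2515 and 2039.7 CPM without and 1187, 684 and 1406 with SAMC, also with no overlap (log2 -1.14 ± 0.30, adjusted p = 0.229).

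**Figure D5:**
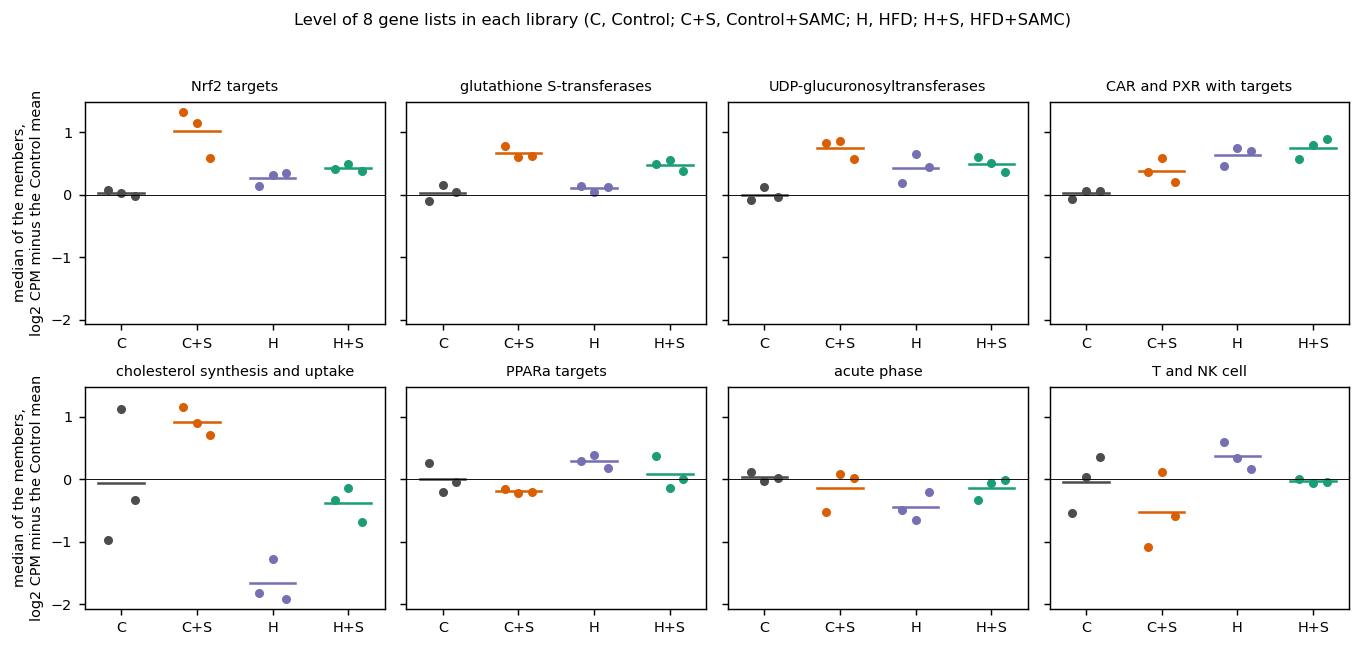
Median level of the members of 8 gene lists in each library, as log2 CPM minus the Control mean, with a point per library and a bar at the mean of 3, in Control (C), Control+SAMC (C+S), HFD (H) and HFD+SAMC (H+S). For Nrf2 targets the C+S points lie at 0.58 to 1.32, above all C points, while for cholesterol synthesis 1 C point, at 1.13, lies among the C+S points.

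No gene passed in any of 15 marker lists, 3 of hepatocytes and 12 of other cells. T and NK cell markers were below 0 in 14 of 16 (median -0.46), with summed levels of 40.2, 57.6 and 61.1 CPM in Control and 35.8, 57.0 and 47.4 with SAMC. Their median was -0.24 without Control replicate 3, -0.27 without Control+SAMC replicate 1 and -0.87 without Control+SAMC replicate 2. Kupffer cell markers were above 0 in 7 of 17 (median -0.02), with sums of 715.3 to 1186 CPM against 847 to 1104. Their median turned to 0.12 without Control replicate 2 and 0.07 without Control+SAMC replicate 1, and was -0.16 without Control replicate 1 and -0.14 without Control+SAMC replicate 2. Sinusoidal endothelial markers were below 0 in 10 of 14 (median -0.18), and the median was -0.06 without Control replicate 2 and -0.08 without Control+SAMC replicate 1. Clec4g, a lectin of these cells, averaged 28.1 CPM without and 16.7 with SAMC (log2 -0.75 ± 0.18, adjusted p = 0.191) with no overlap. Of 13 bile duct and progenitor markers 7 were above 0 (median 0.08), with 3 higher and 1 lower at an unadjusted p under 0.05. The median was 0.58 without Control replicate 1 and -0.03 without Control replicate 2. Krt19 averaged 2.22 and 4.75 CPM and Epcam 3.78 and 7.63, at unadjusted p-values of 0.00556 and 0.00504, and Prom1 averaged 49.0 and 27.4. The erythroid sum was 1829 CPM in Control+SAMC replicate 1 and 476.3 to 889.5 in the other 5. What part any of these had in the liver genes above was not tested.

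Just inside the threshold lay Rn7sl1 and Gnptab (adjusted p = 0.0415 for both, edgeR), and just outside lay LOC100911540 and Ephx1 (0.0619). Among genes that were lower, the nearest with a mean above 1 CPM in both groups and sets that overlap were Tle3, Tmem125, H2afv and Ddhd1, which were picked after their values were seen. H2afv, a variant of histone H2A, averaged 12.4 CPM without and 6.92 with SAMC (log2 -0.84 ± 0.16, adjusted p = 0.0926). Tle3, a Groucho family co-repressor, was at 8.38, 8.81 and 8.86 CPM without and 4.37, 4.23 and 4.40 with SAMC (log2 -1.003 ± 0.18, adjusted p = 0.0739). Tmem125, a membrane protein, was at 44.7, 31.6 and 41.7 CPM without and 10.7, 8.17 and 20.5 with SAMC (log2 -1.58 ± 0.28, adjusted p = 0.0746). Ddhd1, a phospholipase of phosphatidic acid, was at 36.4, 43.7 and 36.1 CPM without and 16.5, 16.0 and 23.5 with SAMC (log2 -1.05 ± 0.21, adjusted p = 0.0949). In HFD+SAMC against HFD the log2 differences of Tle3, Tmem125 and Ddhd1 were -0.88, -0.90 and -0.75, and that of H2afv was -0.24. The adjusted p-values of Tle3, Tmem125 and Ddhd1 there were 0.139, 0.306 and 0.262 (edgeR). The average over the diets includes the normal diet comparison, so it is no separate test of genes picked there. In it the adjusted p-values of Tle3, Tmem125, Ddhd1 and H2afv were 0.0113, 0.0272, 0.0272 and 0.0786 (edgeR).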

How the data were processed

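Liver RNA of 12 rat samples was sequenced after removal of ribosomal RNA, per the labels' protocols, with HISAT2 alignment and HTSeq counting. Trimmomatic 0.36 is named in the submitters' processing notes. For the genome build, the annotation and the strand setting, the entry is "not given" in the labels and files, so antisense and overlapping genes cannot be told apart. The deposited table holds a count and an RPKM per gene and library, made by the authors. The counts were tested as deposited, and the deposited RPKM values were used only to compare the gene lengths they imply.

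From the counts, 15916 of 40154 genes passed edgeR's filter on low counts. TMM factors set their library sizes, and they were fitted over all 12 libraries with edgeR 4.0.16 (quasi-likelihood, robust, 8 residual degrees of freedom, R 4.3.3). P-values were adjusted over all genes by Benjamini-Hochberg, and 0.05 was the threshold. No 2 libraries of Control or of Control+SAMC agreed within counting noise (chi-square per degree of freedom of 179 or more), so none was merged as a library deposited more than once. This does not show that they are separate animals. On simulated data of 15620 genes for this comparison the test recovered 35.4% of genes changed 2-fold and 78.0% of genes changed 4-fold, with 3 false calls. The simulated counts were drawn independently for each gene, with no library sets and no low-fibrinogen libraries. The 3 false calls are therefore no estimate of the false calls in the real data.

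The genes named are those that passed with separate libraries and an average level of 1 log2 CPM or more (up to 15 each way), every list member that passed, up to 4 further members per list with separate libraries and an unadjusted p under 0.05, and the genes of the series title with their readouts. Other genes named (such as Keap1, Abcc2, the P450 genes that did not pass, the receptors and the cell markers) were chosen after their values were seen. Counts cover all genes tested, but the values of 1 gene that passed are not reported here. The comparison, the lists and the markers were chosen with earlier results of these data known. Alternatives were another scaling (RLE), no filter, DESeq2 1.42.0, the 6 normal diet libraries alone, a replicate block, both low-fibrinogen libraries left out, the SAMC effect averaged over the diets, and each library left out in turn.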

Additional observations from a re-analysis of the deposited data

Results flagged for a closer look

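The log2 effect of SAMC differed between the normal and the high fat diet, by the test of the difference itself, for 23 genes. Of those described or examined above, the effect on the normal diet minus that on the high fat diet was 3.67 for LOC100911991, 2.18 for Eif4g2-ps1, 2.47 for Hsp90aa1, -3.25 for Rn7sl1, 13.70 for Snap25 and 20.91 for Fam111a. The last 2 are fitted values of genes with groups at or near 0 counts, depend on the prior count and are no measure of size. For all 6 the Control and HFD+SAMC libraries did not overlap the Control+SAMC and HFD libraries, and a difference between diets cannot be told apart from a difference between these library sets. Fam111a was at most 0.147 CPM in Control and 0.0784 in HFD+SAMC, but at 215, 43.1 and 0.348 CPM in Control+SAMC and 162, 136 and 65.4 in HFD. Hsp90aa1, a cytosolic chaperone with close copies, was at 5.20, 3.70 and 2.85 CPM in Control, 12.7, 7.02 and 8.85 in Control+SAMC, 11.8, 13.4 and 13.2 in HFD, and 5.71, 5.11 and 5.99 in HFD+SAMC.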

How the results depend on the processing

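The count of 19 genes past the threshold (18 higher, 1 lower) was 19 with RLE scaling, 26 with no filter (24 higher, 2 lower), 203 with DESeq2 (136 higher, 67 lower), 5 with the 6 normal diet libraries alone and 5 with both low-fibrinogen libraries left out (5 higher, 0 lower in each), and 35 for the effect averaged over the diets (26 higher, 9 lower). Leaving out 1 library at a time gave 3 to 23 genes, 3 to 19 higher and 0 to 4 lower. DESeq2 and RLE kept all 19 genes, and no filter kept 15. With a replicate block in the 6 libraries edgeR called 0 genes (0 higher, 0 lower), with 908 at an unadjusted p under 0.05. The deviations of same-numbered libraries had correlations of -0.22, 0.03 and 0.12, and those of differently numbered libraries had -0.35 to 0.31. With 3 libraries a group these values cannot show whether the numbers pair the samples.

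For the difference between diets the 23 genes became 23 with RLE, 17 with no filter, 119 with DESeq2, 8 with both low-fibrinogen libraries left out, and 7 to 19 with 1 library left out. For the high fat diet the 8 genes became 8 with RLE, 19 with no filter, 234 with DESeq2 and 1 to 27 with 1 library left out. The Nrf2 target list had 8 members past the threshold, 19 with DESeq2, 2 with the 6 libraries alone, 3 with both low-fibrinogen libraries left out and 0 with the replicate block.

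Signs turned for these genes, none of which passed. With both low-fibrinogen libraries left out the log2 difference was 0.31 for Ahr, 0.18 for Nfkbia and 0.0173 for Nfkb1. Averaged over the diets it was 0.12 for Ahr, 0.0258 for Nfkb1, 0.22 for Fga and -0.42 for Fam111a. With 1 library left out it ranged from -0.51 to 0.48 for Ahr, -0.14 to 0.0596 for Nfkb1, -0.54 to 0.0049 for Nfkbia, -0.12 to 0.078 for Nlrp3 and -0.66 to 0.36 for Fga. The causes were not tested.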

Other observations

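Averaged over both diets, which includes the normal diet comparison and so is not independent of it, SAMC changed 35 genes, 26 higher and 9 lower. Of the 26 higher, 14 are not among the 19 described above, and 3 of these are detoxifying or transport genes that lay just outside the threshold on the normal diet. They are Akr1b8 (log2 4.49 ± 0.56 SE, adjusted p = 0.0159, edgeR), the peptide transporter Slc15a1 (4.40 ± 0.64, adjusted p = 0.0177, edgeR, at 0.0399 CPM in Control) and Ephx1 (1.80 ± 0.29, adjusted p = 0.0297, edgeR). The heme transporter Slc48a1 was higher by 0.67 ± 0.11 and the clock repressor Bhlhe41 by 1.54 ± 0.25. Among the 9 lower were the peroxiredoxin Prdx4 (-0.66 ± 0.10), the endothelial lectin Clec4g (-0.74 ± 0.12) and the apolipoprotein Apon (-0.74 ± 0.12), each below 0 on both diets. None of these genes passed on the normal diet alone, where Prdx4 had an adjusted p of 0.303.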
